A study of Mus musculus with 4 samples.

Results

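The odorant receptors P2, I7, M71, M72, mOR-EG, MOR23, MOR256-17 and Olfr78 are the receptors on which much of olfactory neurobiology was worked out. They were followed here by their symbols, in that order Olfr17, Olfr2, Olfr151, Olfr160, Olfr73, Olfr16, Olfr15 and Olfr78. The choice was made by name and not by a rule on their values, though earlier results of these data were known. Of these 8 genes, 7 have a row of their own in the deposited table, among 1084 odorant receptor loci with 1 symbol and 28168 loci in all. The eighth, Olfr78, is listed only in a locus joined with its neighbour Olfr560, whose value cannot be divided between the genes. That locus is reported beside the other 7 and is not counted with them.

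RNA came from mature olfactory sensory neurons of mice, sorted by fluorescence from the olfactory epithelium, in 4 libraries. Both Nd1 libraries carried the Nd1 insertion, which belongs to mice expressing double-stranded RNA encoded in the genome, together with OMP-IRES-tTA, a transcriptional activator placed at the olfactory marker gene Omp. The control of replicate 1 was Nd1+/- and OMP-IRES-tTA-/-, and the control of replicate 2 was Nd1-/- and OMP-IRES-tTA+/-. All 4 carried OMP-IRES-GFP+/-, so the reporter was common to both groups, with animals aged 212 days for replicate 1 and 87 days for replicate 2 in both groups. The table's own title calls the controls littermates. The series' design text describes the lines as neurodegenerative. Activator and reporter both depend on Omp, a gene of mature neurons. How many mice, and of which strain, each library came from is not stated in the labels.

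The table holds a single value per group and locus in FPKM, fragments scaled to transcript length and to the mapped fragments of the library, which allows levels to be compared per length. These are the authors' pooled values over 2 libraries, so neither a spread over libraries nor a depth can be given. A change is called rose or fell only where the authors' Cuffdiff q, adjusted over all tested loci, is under 0.05.

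Each olfactory sensory neuron normally transcribes a single odorant receptor gene from a single allele, and the receptor chosen sets both the odours the cell detects and the glomerulus its axon reaches. A receptor gene's level in a bulk sample therefore mirrors how many neurons chose it as well as how much of its RNA each neuron holds. These 2 quantities, fewer cells of a type and less RNA per cell, cannot be told apart in any value below. Receptors of class I and class II are separate branches of the family, and of the 8 genes only Olfr78 belongs to class I.

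Because short reads are assigned by sequence, the relation between the receptors bears on how far their values are separate. The stretch below is the 60-base window of the aligned coding sequences with the most bases shared by all 8 genes. It is shown because it is the part of these receptors that is most alike. It codes for the end of the third transmembrane helix and the start of the loop after it, the signature of the family. Capitals mark the 23 bases identical in all 8. The sequences are from the GENCODE M21 transcripts on GRCm38, read 5′ to 3′ on the coding strand.
P2: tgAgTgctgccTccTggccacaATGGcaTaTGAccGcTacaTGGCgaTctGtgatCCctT
I7: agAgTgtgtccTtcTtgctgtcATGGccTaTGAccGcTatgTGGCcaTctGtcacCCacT
M71: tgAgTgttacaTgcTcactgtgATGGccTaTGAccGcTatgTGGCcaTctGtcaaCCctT
M72: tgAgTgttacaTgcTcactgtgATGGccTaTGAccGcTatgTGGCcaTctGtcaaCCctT
mOR-EG: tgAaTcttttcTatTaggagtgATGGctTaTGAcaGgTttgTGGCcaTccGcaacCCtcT
MOR23: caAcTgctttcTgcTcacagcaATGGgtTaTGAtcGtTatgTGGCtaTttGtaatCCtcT
MOR256-17: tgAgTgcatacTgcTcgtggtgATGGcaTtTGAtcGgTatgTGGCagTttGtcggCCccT
Olfr78: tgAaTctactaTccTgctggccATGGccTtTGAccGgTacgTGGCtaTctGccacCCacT

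M71 and M72 have the same bases throughout this window, and the other receptors differ from them and from each other. Over whole coding sequences the remaining 27 of 28 pairs were 42.6% to 57.4% identical, and the 7 pairs with the class I receptor Olfr78 held the low end, at 42.6% to 46.2%. No window of 50 bases in P2, I7, mOR-EG, MOR23, MOR256-17 or Olfr78 occurred in a transcript of any other gene of GENCODE M21. M71 and M72 shared 355 windows of that length, 40.3% of the 880 in M71 and 40.3% of the 881 in M72, with each other. At 36 bases the part of M71 shared with M72 or another gene was 51.3%, and at 75 bases it was 26.2%, shared with M72. With 36 bases mOR-EG shared 5 of 907 windows with its neighbour Olfr1161. Neither the read length nor the treatment of reads with several matches is stated in the labels, so how far M71 and M72 exchange reads was not tested.

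All 7 receptors fell in Nd1 neurons, by 2.60-fold to 51.7-fold. By the q of the authors' deposited table, 7 of 7 passed in the lower direction, beside 19.2% of all 14841 tested loci called lower and 88.2% of the 1016 tested odorant receptor loci. A count of 7 of 7 is thus near the background of the receptor family. The median log2 ratio of the 7 was -2.64, and that of the tested receptors above 0 in both groups was -3.18, with quartiles at -4.40 and -2.05. Loci outside the receptor family with a mean of at least 0.5 FPKM had a median of -0.043. The receptors fall into a set that kept more than 37% of the control level (P2, I7 and MOR256-17), a set that kept 9.83% to 16.1% (MOR23, M72 and M71), and mOR-EG, which kept 1.93%.

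**Figure D1:**
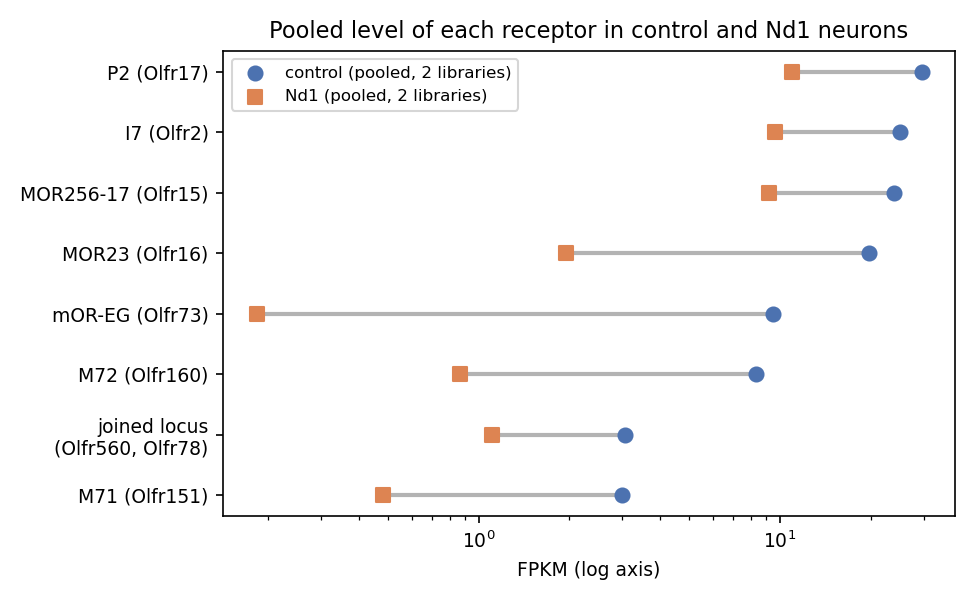
Pooled FPKM of each receptor in control (circles) and Nd1 (squares) on a log axis, 1 value per group over 2 libraries, with no error available. The Nd1 value lies below the control value for all 8 loci, and the gap is widest for mOR-EG (9.47 against 0.183 FPKM).

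P2 (Olfr17) is a receptor whose tagged alleles showed axons of like neurons converging on a few glomeruli. It was the most abundant of the 7 in control, at 29.5 FPKM, and remained so in Nd1, at 10.9 FPKM. The authors' deposited table gives a log2 fold change of -1.43 (q = 1.53e-10). Its locus, mm9 chromosome 7, 114240981 to 114241928 on the plus strand, has the length of the coding exon, 948 bases. In control it ranked 42nd among the 1016 tested receptors, and in Nd1 30th.

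I7 (Olfr2), a receptor for octanal and other aliphatic aldehydes, lies in the same cluster as P2, at mm9 chromosome 7, 114144389 to 114146119 on the minus strand. Its pooled level was 24.95 FPKM in control and 9.62 FPKM in Nd1, the second highest in each group. The authors' deposited table lists a log2 fold change of -1.38 (q = 4.06e-10). Its locus of 1731 bases extends beyond the 984 coding bases. P2 stood 1.18-fold above I7 in control and 1.14-fold above it in Nd1, and with no spread these levels cannot be called different.

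MOR256-17 (Olfr15), a receptor that responds to many unrelated odorants, went from 23.9 FPKM to 9.16 FPKM. The log2 fold change in the authors' deposited table was -1.39 (q = 1.2e-08). It sits on mm9 chromosome 16, 3838975 to 3839913, on the plus strand, in a locus of 939 bases that equals its coding sequence. The log2 ratio of P2 differed by -0.057 from that of I7 and by -0.048 from that of MOR256-17, which is on another chromosome. No test of their likeness was possible on pooled values.

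MOR23 (Olfr16), the receptor for the floral odorant lyral, stood at 19.8 FPKM in control, close below MOR256-17. In Nd1 it stood at 1.94 FPKM, and the authors' deposited table gives -3.35 as its log2 fold change, with q listed as 0. MOR256-17 was therefore 1.21-fold above MOR23 in control and 4.71-fold above it in Nd1. The MOR23 locus is on mm9 chromosome 1, 174886899 to 174887948, on the plus strand, and its 1050 bases hold 930 coding bases.

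M72 (Olfr160) and M71 (Olfr151), paired receptors for acetophenone, lie 17.7 kb apart on the minus strand of mm9 chromosome 9, at 37518933 to 37519865 and 37537562 to 37538646. M72 was at 8.34 FPKM in control and 0.864 FPKM in Nd1, for which the authors' deposited table has -3.27 on the log2 scale and q listed as 0. M71 was at 2.996 FPKM in control and 0.482 FPKM in Nd1, and its log2 value in the authors' deposited table was -2.64 (q = 6.6e-08). M72 exceeded M71 by 2.78-fold in control and by 1.79-fold in Nd1.

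M71 and M72 coding sequences were identical at 899 of 930 aligned positions (96.7%), with 30 substituted bases and 1 base present in M72 alone, and the longest run without a difference was 177 bases. Their most different 150-base stretch is the start of the coding sequence, shown here because reads that cover a marked base can tell the genes apart. Capitals mark the 11 bases that differ.
M71: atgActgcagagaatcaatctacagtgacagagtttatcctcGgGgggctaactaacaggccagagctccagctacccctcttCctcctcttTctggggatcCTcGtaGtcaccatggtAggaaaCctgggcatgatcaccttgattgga
M72: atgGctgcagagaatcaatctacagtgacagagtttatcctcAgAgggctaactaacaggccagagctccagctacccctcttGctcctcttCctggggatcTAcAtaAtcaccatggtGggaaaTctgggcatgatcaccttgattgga

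In the reference genome M71 is not an intact gene, and GENCODE M21 and RefSeq class it as a polymorphic or transcribed pseudogene. The stretch below runs around the base that M71 lacks, shown because it breaks the reading frame, and the capital marks that base in M72. Without it the frame of the reference M71 meets a stop after 774 of its 929 bases. Whether the mice sequenced here carried the broken or an intact allele was not tested, since the table holds no sequence.
M71: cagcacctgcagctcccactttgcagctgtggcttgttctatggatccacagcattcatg
M72: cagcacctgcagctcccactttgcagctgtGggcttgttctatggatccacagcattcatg

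mOR-EG (Olfr73), a receptor for eugenol and vanillin, had the largest fall of the 7. Its level went from 9.47 FPKM to 0.183 FPKM, which the authors' deposited table lists as -5.69 on the log2 scale (q = 4.07e-13). In control its level was near that of M72 (8.34 FPKM), and with no spread the 2 cannot be called different. In Nd1 it stood below M72 by 4.72-fold. By pooled value it moved from the fifth place among the 8 loci to the last. The locus is mm9 chromosome 2, 87874353 to 87875294, on the minus strand, and its 942 bases equal the coding sequence. Its Nd1 value is small in absolute terms. Multiplied by the length it is 5.96 times the smallest step found among short receptor loci in Nd1 (0.0289 FPKM times kb), while the products of M71, M72, MOR23, MOR256-17 and P2 are 18.1 to 358 times that step. Whether this step is the worth of 1 fragment was not shown, and the fall of mOR-EG rests on the smallest Nd1 value of the 7.

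Olfr78, a class I receptor that binds short-chain fatty acids and is also known from the carotid body, was measured only together with Olfr560. The joined locus, mm9 chromosome 7, 109889235 to 109907985, fell from 3.06 FPKM to 1.104 FPKM, listed in the authors' deposited table as -1.47 on the log2 scale (q = 2.41e-06). Both genes are on the minus strand, and in RefSeq on GRCm38 Olfr560 lies within the span of Olfr78. Which of them changed cannot be read from the joined value.

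**Figure D2:**
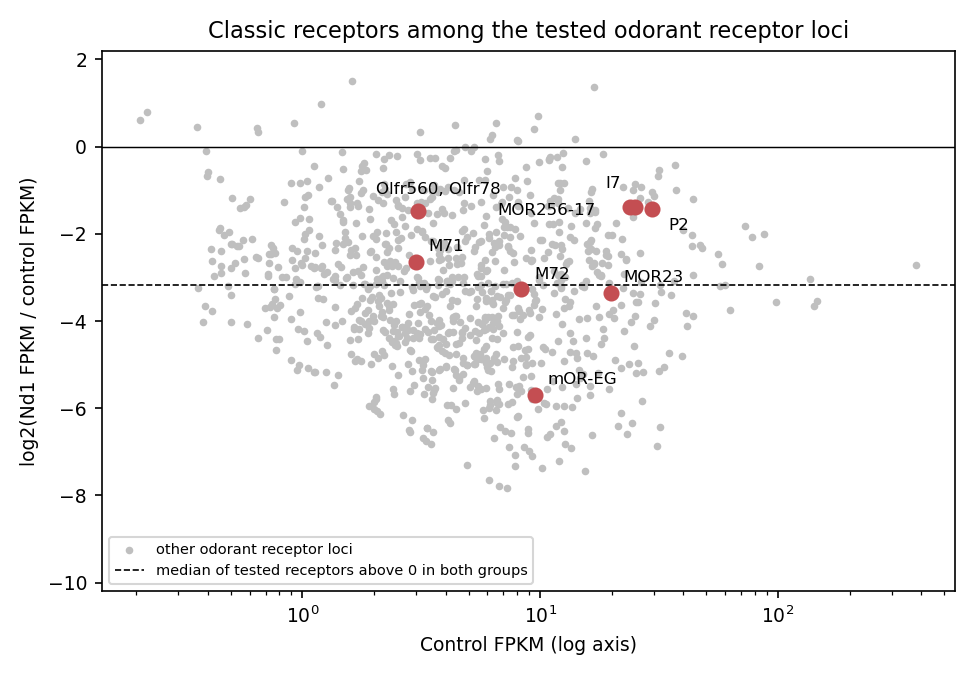
Log2 ratio of Nd1 to control FPKM against control FPKM (log axis) for the 989 tested receptors above 0 in both groups (grey) and for the 8 loci (red). P2, I7 and MOR256-17 lie together at the upper right near -1.4, MOR23 and M72 lie near the dashed median at -3.18, and mOR-EG lies far below it at -5.69.

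Set among all 1016 tested receptors, the 7 are of above-median abundance. By control level 6 of 7 were in the upper 50% of receptors and 5 in the upper 25%, and 4 of them, P2, I7, MOR256-17 and MOR23, were in the upper 10%. Only M71, at rank 648, was below the family's median of 4.36 FPKM. In size of the fall they spread over much of the family's range. I7, MOR256-17 and P2 fell by less than most receptors. In that order 15.6%, 15.9% and 17.0% of tested receptors, called or not, showed a smaller fall or a rise. The joined locus of Olfr78 stood at 17.5%. For M71 that figure was 36.4%, for M72 51.0% and for MOR23 52.3%. For mOR-EG it was 89.4%.

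High abundance in control was found with large and with small falls. Of the 86 receptors of at least 20 FPKM in control, where P2, I7 and MOR256-17 belong, 86 fell, with a median log2 ratio of -3.17 and a range of -6.87 to -0.43. Above -1.5, a bound set after the values were seen, stood 18 of these 86 (20.9%), the 3 named receptors included. In the bands of lower control level that share was 13.9% to 21.5%, so it was not particular to the most abundant receptors. Between 10 and 20 FPKM, where MOR23 belongs, the median of 148 receptors was -2.96. Between 5 and 10 FPKM, the band of M72 and mOR-EG, the median of 231 receptors was -3.70, and between 2 and 5 FPKM, the band of M71, that of 305 receptors was -3.48.

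As a share of the summed receptor level, the 7 moved in opposite directions. That sum over all 1084 receptor loci was 8621 FPKM in control and 1629.8 FPKM in Nd1, or 18.9% of control. Since P2 kept 37.0% of its level, its share of the sum was 0.342% in control and 0.670% in Nd1, 1.96-fold higher. The shares of MOR256-17 and I7 were 2.02-fold and 2.04-fold higher in Nd1. MOR23 and M72 had 0.52 and 0.55 of their control share, M71 had 0.85, and mOR-EG had 0.10, from 0.110% to 0.0112%. The 7 receptors together held 1.38% of the sum in control and 2.04% in Nd1. These shares carry no test.

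**Figure D3:**
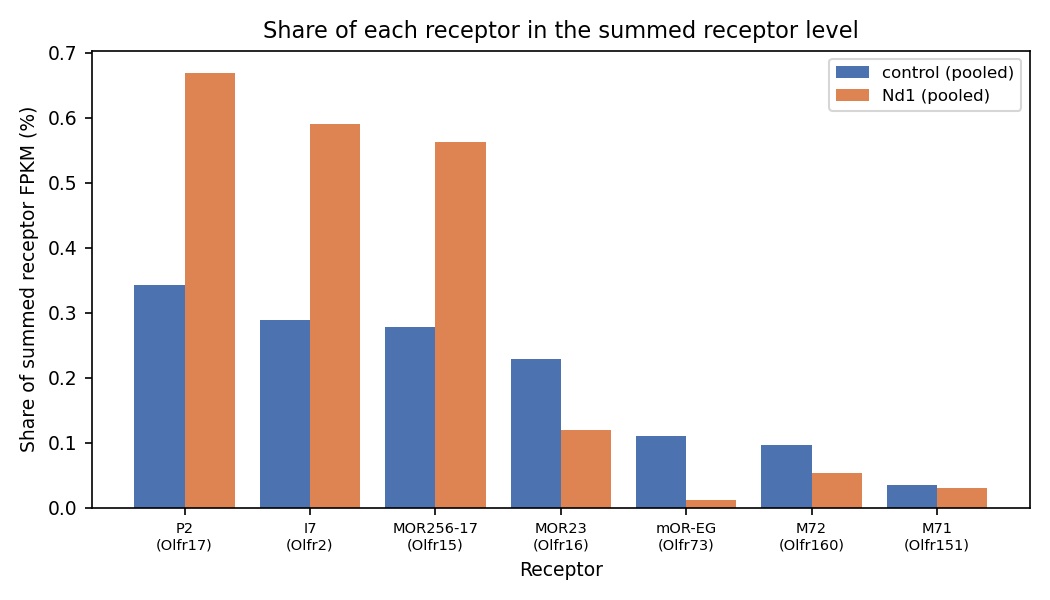
Share of each of the 7 receptors in the summed FPKM of all 1084 receptor loci with a single symbol, in percent, in control and Nd1 (pooled values, no error available). The bars of P2, I7 and MOR256-17 are taller in Nd1, and those of MOR23, mOR-EG, M72 and M71 are shorter.

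Odorant receptor genes lie in genomic clusters, and neighbours in a cluster can share enhancers, so each gene was set beside the other tested receptors of its own cluster, joined at gaps under 0.5 Mb. In the chromosome 7 cluster of P2 and I7, 18 of 20 other receptors fell, with a median log2 ratio of -2.64 that counts receptors at 0 in Nd1 as lowest. Called or not, 7 of the 20 had a higher log2 ratio than P2, and 4 a higher one than I7. The nearest neighbours of P2 fell by more than P2 did, Olfr714 from 2.46 to 0.105 FPKM and Olfr715 from 2.10 to 0.166 FPKM. So did those of I7, Olfr711 from 25.8 to 2.17 FPKM and Olfr713 from 4.61 to 0.286 FPKM. Olfr711 and I7 thus had like levels in control and unlike levels in Nd1, at a distance of 25.4 kb.

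The joined locus of Olfr78 lies in the class I cluster of chromosome 7, where 119 of 120 other tested receptors fell and the median log2 ratio was -4.98. A higher log2 ratio than its -1.47 was found in 1 of the 120, Olfr608 (-1.47, from 3.01 to 1.09 FPKM), and a lower one, called or not, in 119. Its neighbours on either side, Olfr559 (2.30 to 0.109 FPKM) and Olfr561 (3.28 to 0.247 FPKM), had control levels near its own and lower levels in Nd1. The locus spans 18751 bases, the length of the RefSeq gene of Olfr78, and what part of its value comes from coding exons was not tested.

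mOR-EG lies in the large chromosome 2 cluster, where 185 of 203 other tested receptors fell with a median log2 ratio of -3.58. Of these 203, called or not and rises included, 178 had a higher log2 ratio than mOR-EG and 25 a lower one. Both immediate neighbours had log2 ratios below its own, but their Nd1 values are smaller still than that of mOR-EG. With no spread and no depth known, these falls cannot be ranked. Olfr1161, 8.48 kb away, went from 3.33 to 0.0382 FPKM and Olfr1162, 14.5 kb away, from 8.90 to 0.101 FPKM. The authors' deposited table lists them at -6.45 and -6.47 on the log2 scale, both called lower.

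In the chromosome 9 cluster that M72 and M71 open, 67 of 83 other receptors fell and the median log2 ratio was -3.74. With uncalled loci and rises included, 34 of 83 had a higher log2 ratio than M72 and 24 of 83 a higher one than M71. Olfr874, the next receptor after M71, went from 2.35 to 0.230 FPKM. The cluster of MOR23 holds only 4 other tested receptors, all of which fell, 3 of them by less than MOR23. Its nearest neighbour Olfr1408, 172 kb away, went from 12.1 to 6.83 FPKM. MOR256-17 has no tested receptor in its cluster, since Olfr161, 246 kb away, was not tested (0.336 and 0.0857 FPKM).

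**Figure D4:**
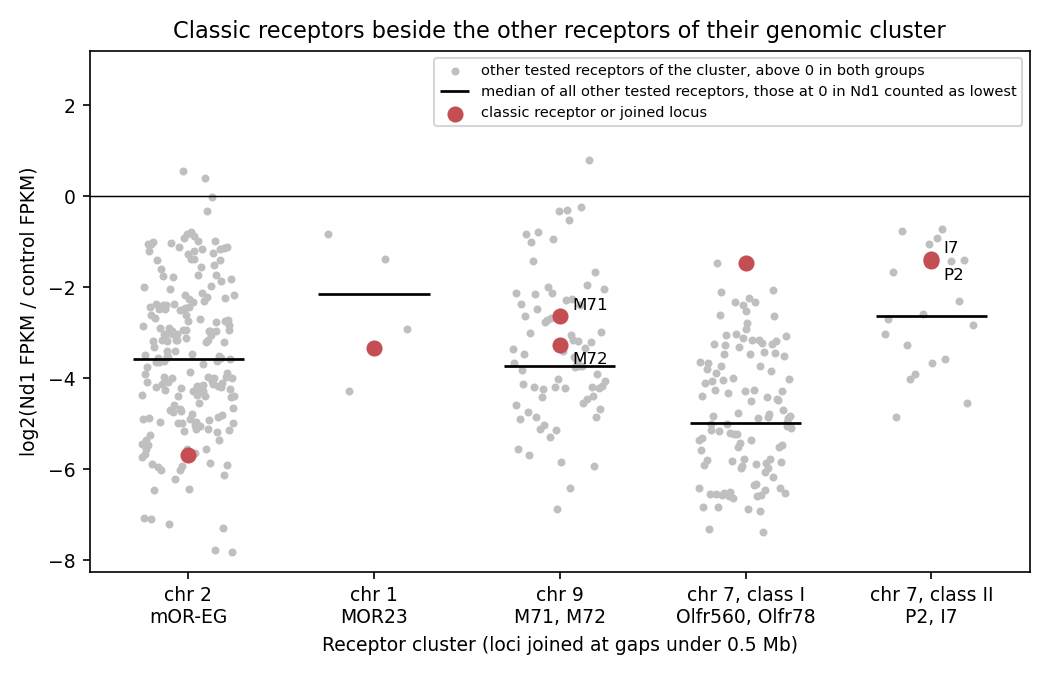
Log2 ratio of Nd1 to control FPKM for the receptors of 5 genomic clusters, with the classic receptors or the joined locus in red, the other tested receptors above 0 in both groups in grey, and the median of all other tested receptors as a bar. The joined locus of Olfr78 lies near the top of its cluster, P2 and I7 lie above the median of theirs, and mOR-EG lies in the lower part of its cluster.

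The receptor nearest in coding sequence was found by local alignment. For P2 the closest coding sequence was Olfr713 (75.2% of 955 aligned positions), which had a log2 ratio of -4.01 beside -1.43 for P2. For I7 it was Olfr524 (70.7% of 849), with 21.9 and 0.655 FPKM and a log2 ratio of -5.07 beside -1.38. Olfr1361, closest to MOR256-17 (68.3% of 928), went from 18.2 to 2.87 FPKM. Olfr558, closest to Olfr78 (67.1% of 902), had 1.98 and 0.477 FPKM. The closest relative of mOR-EG, Olfr74 (79.2% of 925), was not tested, at 0.0344 FPKM in control and listed at 0 in Nd1. That of MOR23 was Olfr418 (74.0% of 887), which is not among the receptor loci with a single symbol. No level of Olfr418 could therefore be set beside MOR23. M71 and M72 were each other's closest relative.

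By position in the plane of both pooled levels, on the log2 scale with 0.1 FPKM added, the receptor most like P2 was Olfr140 of chromosome 2 (28.9 and 11.1 FPKM), and Olfr1406 of chromosome 1 (24.3 and 9.38 FPKM) was nearest to both MOR256-17 and I7. Olfr729 was nearest to MOR23 (21.9 and 1.78 FPKM), Olfr591 to M72 (8.61 and 0.904 FPKM) and Olfr982 to M71 (2.80 and 0.5002 FPKM). Olfr1415 was nearest to mOR-EG (9.16 and 0.192 FPKM), and the joined locus was nearest to Olfr608. This likeness spans only 2 pooled conditions.

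Odorant binding activates the G protein Golf, the adenylate cyclase Adcy3 and the cyclic nucleotide-gated channel, and other genes of the cascade end or adapt the response. Of 13 tested genes of the odour transduction list, the authors' deposited table calls 11 lower and 1 higher and leaves 1 uncalled, beside 19.2% and 15.1% of all tested loci called lower and higher, and their median log2 ratio was -0.78. Omp fell from 4087 to 605 FPKM, and of the libraries only the control of replicate 1 lacked OMP-IRES-tTA at this gene. The phosphodiesterase Pde1c fell from 243 to 118 FPKM, Adcy3 from 888 to 496 FPKM and the channel subunit Cnga2 from 860 to 486 FPKM. Gnal, the alpha subunit of Golf, stood at 1672 and 924 FPKM and carries no call because the authors' test failed. The single rise was that of Gnas, a related alpha subunit, from 15.7 to 24.1 FPKM, named after its value was seen.

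The summed FPKM of all 16 genes of that list, those with a failed test included, had a log2 ratio of -1.17. Set against this sum, the falls of P2, I7 and MOR256-17 came to -0.26, -0.21 and -0.22 and that of mOR-EG to -4.52. Omp carries much of that sum, and OMP-IRES-tTA at this gene was absent from the control of replicate 1 only. Without Omp the list's log2 ratio was -0.79, and the values were -0.64, -0.58 and -0.59 for the same 3 receptors and -4.90 for mOR-EG.

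Odorant receptors need helper proteins to fold and to reach the cell surface. Of 8 tested genes of receptor transport and folding, the authors' deposited table calls 2 lower and leaves 6 uncalled, near the 19.2% of all tested loci called lower, and their median log2 ratio was -0.23. The receptor transporter Rtp1 did not pass (566 and 473 FPKM), while Reep1, a receptor expression enhancing protein, fell from 58.8 to 44.6 FPKM and Hspa5, an endoplasmic reticulum chaperone, from 137 to 119 FPKM. Among 19 tested genes of receptor choice and its chromatin, 8 were called lower, 2 higher and 9 neither, beside 19.2% lower and 15.1% higher over all tested loci, and their median was -0.13. Lhx2, a homeodomain factor of receptor enhancers, fell from 227 to 172 FPKM, Ddit3 from 55.9 to 23.7 FPKM and Atf5, a factor of the receptor feedback signal, from 1404 to 780 FPKM. Higher were Emx2 (39.5 to 66.7 FPKM) and Ebf1 (108 to 166 FPKM), both transcription factors that bind receptor promoters.

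Markers of cell types changed as well, some lists lower and some higher, and their part in the receptors' falls was not tested. The counts stand beside 19.2% of all tested loci called lower and 15.1% called higher. Of 10 markers of mature olfactory sensory neurons, 9 were tested and 9 fell, with summed levels of 17022 FPKM in control and 6943 FPKM in Nd1. Most of these markers are also in the odour transduction list, so this count is not separate from that of the list. Of 10 markers of immature neurons, the stage before, 9 were tested, 6 rose and 3 did not pass, with sums of 492 and 889 FPKM. Sustentacular markers summed to 332 and 296 FPKM (3 of 8 tested fell), basal and progenitor markers to 16.8 and 9.03 FPKM (5 of 5 fell) and microvillous markers to 63.1 and 28.8 FPKM (3 of 4 fell). Neutrophil markers summed to 32.7 and 6.87 FPKM (6 of 7 fell), and microglia and macrophage markers to 2.45 and 1.73 FPKM (1 of 3 fell). Vomeronasal markers summed to 163 and 202 FPKM (4 of 5 rose and 1 fell), most of it from Gnao1 alone (141 and 167 FPKM). Endothelial markers summed to 2.30 and 3.11 FPKM (1 of 2 rose). Of 8 lymphocyte markers 1 was tested and did not pass, 2 were at 0 in both groups, and the sums were 0.599 and 0.272 FPKM.

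Judged by locus length, what was counted as the receptor is mostly its coding exon, though the annotation used is not stated. The widest exception is I7, with a locus of 1731 bases and 984 coding bases. The loci of MOR23 and M71 also exceed their coding sequences. The locus length in the table equals that of the RefSeq gene for 7 of 7 receptors, whereas GENCODE M21 gives P2 a longest transcript of 3666 bases and MOR256-17 one of 6240. The RefSeq start of P2 lies 4247 bases inside the GENCODE gene and that of MOR256-17 8097 bases. Of 944 receptor entries in the RefSeq table of upstream sequences, 72.6% begin at an ATG, so these windows lie before the coding exon and are not shown as promoters.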

How the data were processed

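Mature olfactory sensory neurons were sorted after papain dissociation and libraries were made from polyadenylated RNA, per the labels' protocols. Bowtie, Cuffdiff 1.3.0 and the build mm9 are named in the submitters' processing notes; which annotation or filter was used is not given in these sources. The authors deposited 1 FPKM value per group and locus, with a log2 fold change, a p-value and a q-value for Nd1 against control, per the file headers. The deposited test statistic, a score, was not used. Values per library are not in the table, so depth is unknown, the planned limma fit could not be made, and no test was run beyond the authors' calls at q under 0.05. The libraries of a group came from animals of different ages, and so from separate mice.

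Receptor loci were those with a single Olfr symbol followed by a number. Starts were raised by 1 to count from 1. Coding sequences came from GENCODE M21 (GRCm38), and were compared by sequence only, with Biopython 1.88 and mafft. All coordinates printed are mm9, from the table. Named genes were the 7 receptors and the joined locus, their neighbours, nearest relatives and most alike receptors, and, of each pathway list, the 4 called genes that changed most and reached 1 FPKM, with Omp, Gnal, Adcy3, Cnga2, Lhx2 and Rtp1. Gnas and Gnao1 were added after their values were seen. Relatives were meant to be found on proteins, and were found on coding DNA. Neighbours beyond a cluster are not printed. The receptors and lists were chosen with earlier results of these data known. Cluster assignment was tested on simulated loci, and the median on a short list with a known answer. The check of ratios was an identity that could not fail. Alternatives were other pseudocounts, scalings, thresholds, filters and cluster gaps.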

Additional observations from a re-analysis of the deposited data

How the results depend on the processing

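By the authors' p and q values, 7 of 7 receptors passed at q under 0.01, at 2-fold, and at p under 0.05 divided by the number of tested loci. The median log2 ratio of the 7 receptors was -1.43 on log2(FPKM + 1), -2.41 on log2(FPKM + 0.1), -2.59 centred on loci that are not receptors and -1.32 on quantile-normalized log2(FPKM + 1), which changes the pseudocount as well. The median of the receptor family was, in the same order, -1.65, -2.82, -3.13 and -1.55. Set against the odour transduction list the medians were -1.47 for the 7 and -2.01 for the family, and without Omp, an alternative chosen after seeing the data, -1.84 and -2.38. Among receptors of at least 1 FPKM in a group the family's median was -3.25. On log2(FPKM + 1), which compresses low values, mOR-EG stood at -3.15. With clusters joined at gaps under 1 Mb, the median of the other receptors in the cluster of P2 and I7 was -3.51 in place of -2.64. The clusters of M71 and M72, mOR-EG and the joined locus had the same medians. That of MOR23 then held 17 other tested receptors in place of 4, with a median of -2.14 at both gaps. Of these 17, 11 had a smaller fall than MOR23 and 6 a larger one. No paired analysis was possible because the table gives 1 pooled value per group, and leaving out replicates was not run for the same reason. Unknown depth limits every value near 0 FPKM, among them those of mOR-EG and several neighbouring receptors in Nd1.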
